A study of Mus musculus with 12 samples.

Results

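In all, 7 inflammation genes of mouse hippocampal slices are described here across 4 conditions: the chemokine genes Cxcl1, Cxcl2 and Ccl2, the chemokine-like receptor gene Ccrl2, the prostaglandin synthase gene Ptgs2, the pentraxin gene Ptx3 and the transcription factor gene Cebpb. All of their probes on an Illumina Mouse-6 v1.1 BeadChip were taken by Entrez gene number, which gave 7 of the 8102 genes that could be named and 8 probes of 46301 in the deposited value table, 1 for each gene and 2 for Ptgs2. The tissue was organotypic hippocampal slice culture, slices of hippocampus kept alive in a dish, from C57BL/6J mice of mixed gender with no genetic change named. In the IS + DIDS group slices spent 2 h in an ischemic solution (IS) with DIDS, and in the IS group 2 h in the ischemic solution alone. In the ACSF + DIDS group they spent 2 h in artificial cerebrospinal fluid (ACSF) with DIDS, and in the Control ACSF group 2 h in ACSF alone. DIDS is 4,4'-diisothiocyanatostilbene-2,2'-disulfonic acid, a compound that blocks anion channels and bicarbonate transporters. Each group held 3 samples by title. The labels name neither the doses, nor the mice or cultures behind a sample, so the p-values measure the spread between these samples, which may be technical.

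Chemokines are small secreted proteins that attract leukocytes: CXCL1 and CXCL2 act on neutrophils through CXCR2, and CCL2 acts on monocytes through CCR2. CCRL2 is an atypical receptor that binds chemerin without the usual signalling, PTGS2 (COX-2) makes the precursor of prostaglandins, and PTX3 is a secreted pattern recognition protein that binds complement. C/EBP beta is a transcription factor of inflammatory and acute phase genes. In the brain these genes are known as early inducible genes of microglia, astrocytes, endothelium and, for Ptgs2, neurons, and many of them are targets of NF-kappaB.

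The deposited array files and the deposited value table did not hold the same samples. Among the 12 array files were 9 distinct arrays, since 3 pairs of files had the same signal at every one of 46628 probes. The value table had 12 distinct columns, each with its own title, and no pair of them shared more than 213 of 46301 values. The repeated arrays matched the columns ACSF + DIDS 3, IS + DIDS 2 and IS + DIDS 3, and the columns IS 2, ACSF + DIDS 1 and IS + DIDS 1 matched no array file, so those 3 have an intensity here but no detection score or chip. All levels and tests below therefore use the value table, a choice made after the files were seen. The fit first planned used the 7 arrays filed under a single group, and passed 0 of the 7 genes in every comparison; its counts of probes are given beside each. The 9 distinct arrays with background correction, under the table's titles, passed Ptx3 in IS against Control ACSF (limma adjusted p 0.00338) and in ACSF + DIDS against Control ACSF (0.00259) and Cebpb in IS + DIDS against IS (0.0351), and none of the others. Control ACSF 1, Control ACSF 2 and IS 1 lay on chip 1, and Control ACSF 3, IS 3, ACSF + DIDS 2, ACSF + DIDS 3, IS + DIDS 2 and IS + DIDS 3 on chip 2. IS + DIDS 1 stood apart from the rest, at 50.6 on a first principal component (28.5% of the variance) where the other 11 samples lay between -17.7 and 8.92. ACSF + DIDS 2 is described as IS + DIDS in its GEO description but titled ACSF + DIDS, and it is used by its title. Probes detected per array numbered 15291 to 16614.

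The promoters of 5 of the genes are shown because their neighbouring positions and shared letters set the 2 CXC chemokine genes beside the others. RefSeq entries (build GRCm38.p6) were found for 6 of the 7 genes, each running from 250 bases before to 50 bases after the annotated start. Capitals mark matches on either strand to the NF-kappaB motif (GGGA and CC with any 4 bases between them) or the C/EBP motif TTGCNNAA.
Cxcl1 promoter (chr5:90890995-90891294, plus strand): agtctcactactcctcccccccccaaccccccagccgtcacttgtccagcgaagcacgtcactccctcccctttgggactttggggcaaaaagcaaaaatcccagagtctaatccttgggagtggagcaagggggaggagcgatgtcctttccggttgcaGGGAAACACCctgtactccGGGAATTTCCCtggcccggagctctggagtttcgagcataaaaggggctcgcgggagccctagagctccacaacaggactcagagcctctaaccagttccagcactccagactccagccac
Cxcl2 promoter (chr5:90903649-90903948, plus strand): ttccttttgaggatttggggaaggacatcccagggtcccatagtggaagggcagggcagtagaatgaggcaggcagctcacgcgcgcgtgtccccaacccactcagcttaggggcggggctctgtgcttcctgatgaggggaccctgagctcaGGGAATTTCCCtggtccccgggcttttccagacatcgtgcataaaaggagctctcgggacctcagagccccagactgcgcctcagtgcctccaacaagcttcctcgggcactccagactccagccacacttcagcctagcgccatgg
Ccrl2 promoter (chr9:111057469-111057768, minus strand): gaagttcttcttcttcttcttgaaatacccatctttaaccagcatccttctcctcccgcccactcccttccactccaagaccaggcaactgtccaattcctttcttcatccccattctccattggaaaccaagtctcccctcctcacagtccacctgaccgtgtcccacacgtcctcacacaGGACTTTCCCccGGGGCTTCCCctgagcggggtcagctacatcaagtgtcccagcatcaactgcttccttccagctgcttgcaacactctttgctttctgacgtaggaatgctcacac
Ptgs2 promoter (chr1:150099781-150100080, plus strand): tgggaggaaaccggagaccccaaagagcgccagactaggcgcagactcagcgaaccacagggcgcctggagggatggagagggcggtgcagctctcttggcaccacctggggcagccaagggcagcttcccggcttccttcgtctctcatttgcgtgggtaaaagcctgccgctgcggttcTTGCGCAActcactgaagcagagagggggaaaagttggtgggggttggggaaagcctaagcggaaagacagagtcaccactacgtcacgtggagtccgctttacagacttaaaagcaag
Ptx3 promoter (chr3:66219637-66219936, plus strand): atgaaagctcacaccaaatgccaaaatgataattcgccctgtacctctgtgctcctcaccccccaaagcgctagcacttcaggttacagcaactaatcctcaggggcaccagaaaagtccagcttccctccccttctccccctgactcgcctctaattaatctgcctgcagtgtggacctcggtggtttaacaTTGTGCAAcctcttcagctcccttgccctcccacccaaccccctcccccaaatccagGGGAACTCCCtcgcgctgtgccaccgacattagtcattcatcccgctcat
Cxcl1 and Cxcl2 are adjacent protein-coding genes on chromosome 5, and both windows held GGGAATTTCC, 71 bases before the start in Cxcl1 and 97 bases before it in Cxcl2. This match reads on both strands, 1 base apart, so it overlaps itself. Cxcl1 had another match, GGGAAACACC, 90 bases before the start. The first of 3 Ccrl2 entries had minus-strand matches 68 and 56 bases before the start, and the other 2 entries had none. In Ptx3 a match began at the annotated start, and a C/EBP match lay 57 bases before it. Ptgs2 had no NF-kappaB match in this window and a C/EBP match, TTGCGCAA, 69 bases before the start. Cebpb, whose sequence is not shown, had 1 NF-kappaB match and a TATAAA. Of all 32851 promoter windows of this length, 20.7% held the NF-kappaB motif, 10.8% the C/EBP motif, 13.6% TATAAA and 7.81% the AP-1 motif TGANTCA, which was in none of the 6 genes' windows. These are matches of letters, and binding was not measured.

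Among the ligands, Cxcl1 had intensities of 161, 136 and 126 in IS + DIDS samples 1 to 3, against 7694, 6732 and 1034 in IS, 951, 771 and 469 in ACSF + DIDS, and 2460, 2616 and 5436 in Control ACSF. Both DIDS groups lay below both groups without DIDS, and IS + DIDS lay lowest of all. IS 3, the IS sample on chip 2, lay below every Control ACSF sample, and the other 2 IS samples lay above them. The Cxcl1 probe was detected (score above 0.99) on all 9 arrays with a score, although at 0.991 and 0.992 in IS + DIDS it was close to the limit.

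Cxcl2, which encodes a close relative of CXCL1, had intensities of 79.8, 51.8 and 58.0 in IS + DIDS, 964, 1292 and 82.2 in IS, 93.0, 98.8 and 79.8 in ACSF + DIDS, and 152, 177 and 358 in Control ACSF. It was detected on 0 of 2 scored IS + DIDS arrays, 1 of 2 IS, 0 of 2 ACSF + DIDS and 3 of 3 Control ACSF arrays. IS 3 was again the low sample of its group, not well above background, and the highest IS sample was 15.7 times the lowest.

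Ccl2, the monocyte chemokine gene, had intensities of 74.8, 104.6 and 77.4 in IS + DIDS, 172, 136 and 121 in IS, 106.5, 89.2 and 98.6 in ACSF + DIDS, and 311, 474 and 364 in Control ACSF. It was highest in Control ACSF, with no overlap with any other group, and was not well above background on any of the 4 scored DIDS arrays. Its IS samples lay close together, the highest 1.42 times the lowest.

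The receptor gene Ccrl2 had intensities of 259.7, 139 and 125 in IS + DIDS, 6471, 6650 and 1459 in IS, 142, 154 and 163 in ACSF + DIDS, and 212, 299 and 229 in Control ACSF. Every IS sample lay above every sample of the other 3 groups, with IS 3 the lowest of them. The probe was detected on all 9 scored arrays, although at scores of 0.991 to 0.994 in the DIDS groups it was close to the limit. Among the 6 DIDS samples, IS + DIDS 1 was highest.

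Ptgs2 was read by 2 probes that gave different pictures. The first had intensities of 87.5, 86.2 and 99.3 in IS + DIDS, 1144, 1204 and 282 in IS, 169, 216 and 176 in ACSF + DIDS, and 98.0, 127 and 102 in Control ACSF. It was detected on 0 of 2 scored IS + DIDS arrays, 2 of 2 IS, 2 of 2 ACSF + DIDS and 0 of 3 Control ACSF arrays. The second probe was not well above background on any of 9 arrays, at 61.9 to 65.1 in IS + DIDS, 55.2 to 61.6 in IS, 54.8 to 67.9 in ACSF + DIDS and 59.5 to 64.8 in Control ACSF, and it was not tested. Every Ptgs2 value below is therefore that of 1 probe.

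Ptx3 had intensities of 162, 212 and 150.2 in IS + DIDS, 505, 404 and 405 in IS, 247, 227 and 224 in ACSF + DIDS, and 1420, 1250 and 1428 in Control ACSF. The 4 groups did not overlap at any point, in the order IS + DIDS, ACSF + DIDS, IS and Control ACSF from low to high. The share of all probes with 4 groups apart was not counted. The highest IS + DIDS sample (212) lay close to the lowest ACSF + DIDS sample (224), and these groups did not differ by limma (adjusted p 0.126). IS 3 did not stand apart for this gene.

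Cebpb had intensities of 1646, 1170 and 1030.3 in IS + DIDS, 4509, 3949 and 2825 in IS, 1683, 1596 and 1666 in ACSF + DIDS, and 2969, 3601 and 2850 in Control ACSF. All 6 DIDS samples lay below all 6 samples without it, while IS overlapped with Control ACSF and IS + DIDS with ACSF + DIDS.

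**Figure D1:**
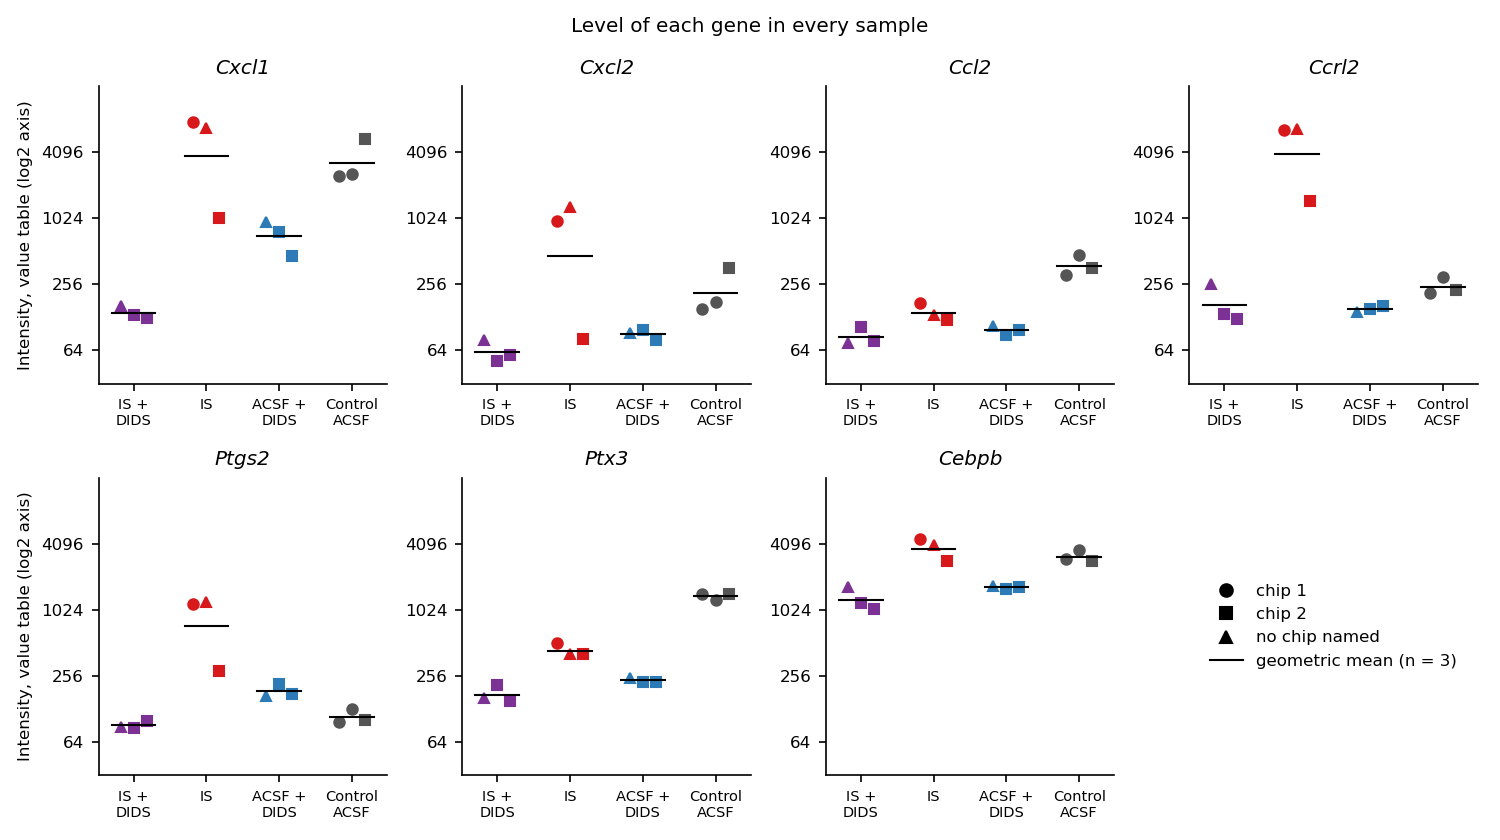
Intensity in the value table (log2 axis) of each of the 7 genes in every sample, by group; points are samples, the shape gives the chip (triangles are the 3 samples with no chip named) and the line is the geometric mean of 3. Ccrl2 and Ptgs2 stand highest in IS, Ccl2 and Ptx3 in Control ACSF, and the IS sample on chip 2 is the low one for Cxcl1, Cxcl2, Ccrl2 and Ptgs2.

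The design's first comparison asks what the ischemic solution changed in 2 h. Ccrl2 rose to a geometric mean 16.3-fold above Control ACSF and Ptgs2 rose 6.72-fold, or at least 5.69-fold against the detection limit, since Ptgs2 was not well above background in Control ACSF. Both Ptgs2 folds are those of the value table, and the array files with background correction gave a log2 difference of 1.49 (7 or 9 arrays), which did not pass. Ptx3 fell 3.13-fold and Ccl2 fell 2.66-fold in the same slices. The scored IS readings of Ccl2 were close to the detection limit, and its fold is that of the value table. For Ccl2 the array files with background correction gave a smaller log2 difference, -0.54 with 9 arrays (limma adjusted p 0.161). Cxcl1, Cxcl2 and Cebpb did not pass the test. In log2 units the difference (IS minus Control ACSF) was 4.03 ± 0.47 for Ccrl2, 2.75 ± 0.41 for Ptgs2, -1.65 ± 0.14 for Ptx3 and -1.41 ± 0.18 for Ccl2 (SE, n = 3 each). The limma model with Benjamini-Hochberg adjustment gave adjusted p of 0.000906, 0.00573, 0.000133 and 0.00192 for these in turn. So 4 of 7 genes passed, 2 in each direction, where 0.891% of the 16717 probes tested passed. The 7 genes were chosen with earlier results of these data known. Counts set beside the share of all probes, here and below, are therefore no test of the 7 as a set. For Cxcl1 the difference was 0.21 with a 95% interval from -1.1 to 1.51 (limma adjusted p 0.967), for Cxcl2 1.13 from -0.51 to 2.78 (0.737), and for Cebpb 0.24 from -0.17 to 0.66 (0.801). The median difference was 0.24 over the 7 genes and -0.003 over all probes tested.

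The differences were also taken within each chip, where IS on chip 2 is 1 sample, so that chip and sample cannot be told apart. Within chip 1, with 1 IS sample and 2 Control ACSF samples, the log2 difference was 1.60 for Cxcl1 and 2.55 for Cxcl2, and within chip 2, with 1 of each, it was -2.39 for Cxcl1 and -2.12 for Cxcl2. Ccrl2 was higher in IS by 4.68 on chip 1 and by 2.67 on chip 2, and Ptgs2 by 3.36 on chip 1 and 1.46 on chip 2. Ccl2 (-1.15 on chip 1 and -1.58 on chip 2) and Ptx3 (-1.40 on chip 1 and -1.82 on chip 2) had the same sign and like size on both. Without IS 3 the difference became 4.75 for Ccrl2 and 3.44 for Ptgs2, and Cxcl2 passed at 2.39 (limma adjusted p 0.00347), while Cxcl1 stayed short of the threshold at 1.14 (limma adjusted p 0.282). In the 7-array fit from the array files 0 of the 7 genes passed (3 probes of all did), the smallest limma adjusted p being 0.089 for Ptx3.

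**Figure D2:**
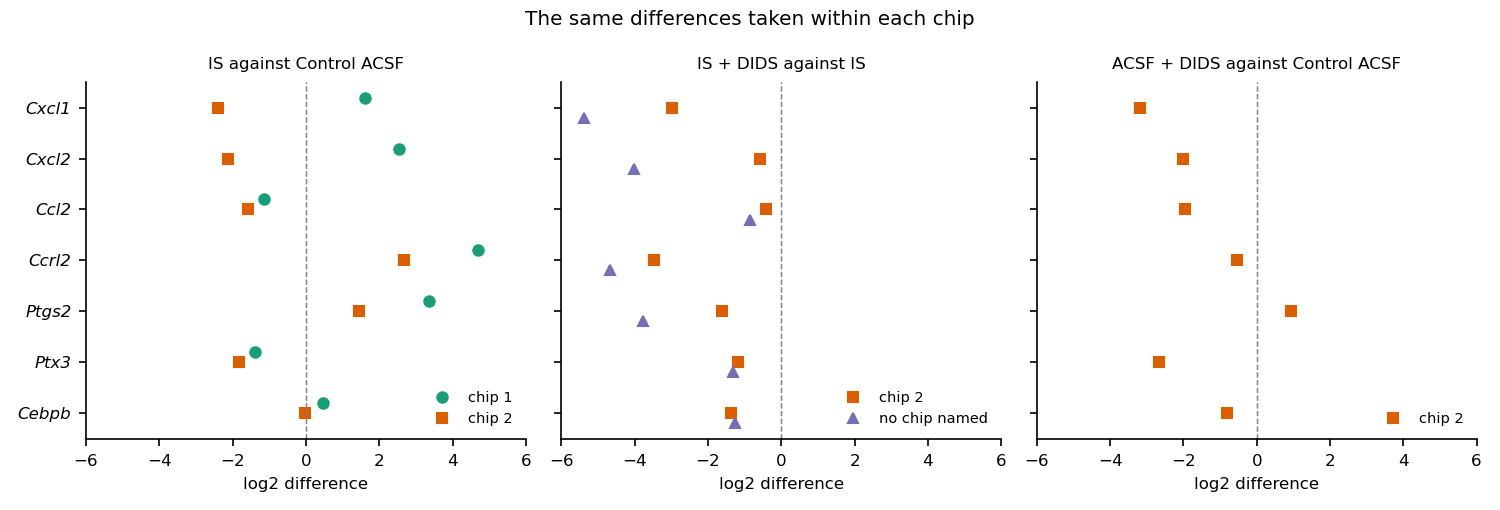
Log2 difference in intensity of each gene within chip 1 (circles), within chip 2 (squares) and among the 3 samples with no chip named (triangles, not known to share a chip), for 3 comparisons; each point rests on 1 or 2 samples a group. Cxcl1 and Cxcl2 lie on opposite sides of 0 on the 2 chips for IS against Control ACSF, and all 7 genes lie below 0 in both sets for IS + DIDS against IS, Cxcl2 on chip 2 being at background in both groups.

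Adding DIDS to the ischemic solution was compared with the ischemic solution alone. Of the 7 genes, 6 were lower in every IS + DIDS sample than in every IS sample, a pattern that 11.3% of the tested probes had, while Cxcl2 was not well above background in IS 3 or IS + DIDS and has no order between them. The same 6 passed the test as lower, against 2.41% of tested probes passing as lower and 3.07% in either direction. Cxcl1 fell 26.9-fold and Ccrl2 24.1-fold, the scored IS + DIDS readings of both being close to the detection limit. Ptgs2 fell at least 5.65-fold in the value table, a bound because its probe was not well above background on the 2 scored IS + DIDS arrays. Cebpb fell 2.94-fold and Ptx3 2.52-fold. Ccl2 passed narrowly, with a bound of at least 1.1-fold lower in the value table. This bound takes IS as measured, although the scored IS readings of Ccl2 were close to the detection limit. The array files with background correction gave a log2 difference of -0.12 for Ccl2 with 9 arrays and -0.14 with 7. The log2 differences (IS + DIDS minus IS, SE, n = 3 each) were -4.75 ± 0.60 for Cxcl1, -4.59 ± 0.47 for Ccrl2, -3.01 ± 0.41 for Ptgs2, -1.55 ± 0.19 for Cebpb, -1.33 ± 0.14 for Ptx3 and -0.74 ± 0.18 for Ccl2. Their limma adjusted p values were 0.00185, 0.000529, 0.00293, 0.00168, 0.000716 and 0.049 in the same order. Cxcl2 missed the threshold at -2.91 ± 0.76 (limma adjusted p 0.06). No bound is given for it, since IS 3 was itself not well above background. The median difference was -2.91 over the 7 genes and 0.013 over all probes tested.

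On chip 2 alone, with 2 IS + DIDS samples and IS 3, the log2 difference was smaller for the genes low in IS 3: -2.98 for Cxcl1, -3.47 for Ccrl2 and -1.61 for Ptgs2. For Cebpb it was -1.36 there and for Ptx3 -1.18. Without IS 3 all 7 genes passed, with -5.68 for Cxcl1, -5.31 for Ccrl2, -3.69 for Ptgs2 and -4.17 for Cxcl2 (limma adjusted p 2.24e-05 for Cxcl2). Without IS + DIDS 1, the sample that stood apart, 5 of 7 passed and Ccl2 did not, at -0.65 (limma adjusted p 0.103). The Ccl2 call was also lost with any of 8 other samples left out, with the chip as a block (limma adjusted p 0.109) and with the replicate block (limma adjusted p 0.0551), and over all settings tried its adjusted p ran from 0.0371 to 0.852. In the 7-array fit, with 1 IS + DIDS array, 0 of the 7 genes passed and 0 probes of all did, and the log2 difference was -1.50 for Ptgs2 and -0.71 for Ptx3. Summed intensity of the astrocyte markers (4 of 10 with a named probe, all 4 detected) was 25113 to 31285 in IS + DIDS and 31295 to 36033 in IS, with no marker gene passing, and its part in these differences was not tested. In bulk slices, fewer cells of a type and less RNA per cell cannot be told apart.

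DIDS in ACSF, with no ischemic solution, was compared with Control ACSF. Ptx3 fell 5.87-fold, with the smallest p of all 16717 probes in this comparison, and Ccl2 fell at least 2.90-fold in the value table. For Ccl2 the array files with background correction gave a smaller log2 difference, -0.65 with 9 arrays and -0.66 with 7. The log2 difference (ACSF + DIDS minus Control ACSF, SE, n = 3 each) was -2.55 ± 0.14 for Ptx3 (limma adjusted p 3.99e-06) and -1.95 ± 0.18 for Ccl2 (limma adjusted p 0.000246). These 2 of 7 genes passed, both lower, where 0.419% of tested probes passed as lower and 0.592% in either direction. The groups did not overlap for any of the 7 genes. Of these, 6 were lower in ACSF + DIDS, a pattern of 8.64% of tested probes, and Ptgs2 was higher, a pattern of 7.0%. Of the 7, 5 did not pass: Cxcl1 at -2.22 (95% interval -3.53 to -0.92, limma adjusted p 0.192), Cebpb at -0.92 (-1.34 to -0.51, 0.0575), Cxcl2 at -1.24 (-2.88 to 0.40, 0.69), Ccrl2 at -0.67 (-1.69 to 0.34, 0.736) and Ptgs2 at 0.78 (-0.11 to 1.66, 0.628).

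The spread in this fit is shared by all 4 groups, so the IS samples bear on it although they are not compared. Without IS 3 the differences were the same and 5 of 7 genes passed, among them Cxcl1 (limma adjusted p 0.00309), Cebpb (0.0234) and Ptgs2 as higher (0.0207). Cebpb also passed without IS + DIDS 1 (0.0155) or IS + DIDS 3 (0.0483), by limma. On chip 2 alone the log2 difference was -2.66 for Ptx3, -1.96 for Ccl2 and -3.18 for Cxcl1. In the 7-array fit, with 1 ACSF + DIDS array, 0 of the 7 genes passed and 0 probes of all did. Marker sums moved with this comparison as well: the meningeal fibroblast sum (5 of 8 markers with a named probe, Col1a1, Col1a2 and Col3a1 detected on no array) was 3527 to 5497 in ACSF + DIDS and 2243 to 2835 in Control ACSF. The neuron sum (8 of 12 markers with a named probe, Snap25 detected on no array) was 34686 to 40285 in ACSF + DIDS and 28950 to 34077 in Control ACSF. No marker gene of either list passed, and their part in the result was not tested.

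With DIDS present in both, IS + DIDS was set against ACSF + DIDS, a comparison added after the files were seen. None of the 7 genes passed by limma, where 2.47% of tested probes did. At an unadjusted p under 0.05, 3 did, where 20.9% of tested probes did: Cxcl1 (-2.32, unadjusted limma p 0.00213), Ptx3 (-0.43, 0.0103) and Ptgs2 (-1.03, 0.0259), each with every IS + DIDS sample below every ACSF + DIDS sample, as 12.5% of tested probes had. Ccrl2, the gene highest over Control ACSF in the ischemic solution alone, differed by 0.11 (95% interval -0.90 to 1.12) when DIDS was in both. Without IS + DIDS 1 it differed by -0.22. Its scored readings in both groups were close to the detection limit. Cebpb differed by -0.39 (-0.81 to 0.02). Cxcl2 and Ccl2 were not well above background in either group, so no difference is given for them. Without IS 3, Cxcl1 and Ptgs2 passed as lower in IS + DIDS (limma adjusted p 0.00246 and 0.00248).

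**Figure D3:**
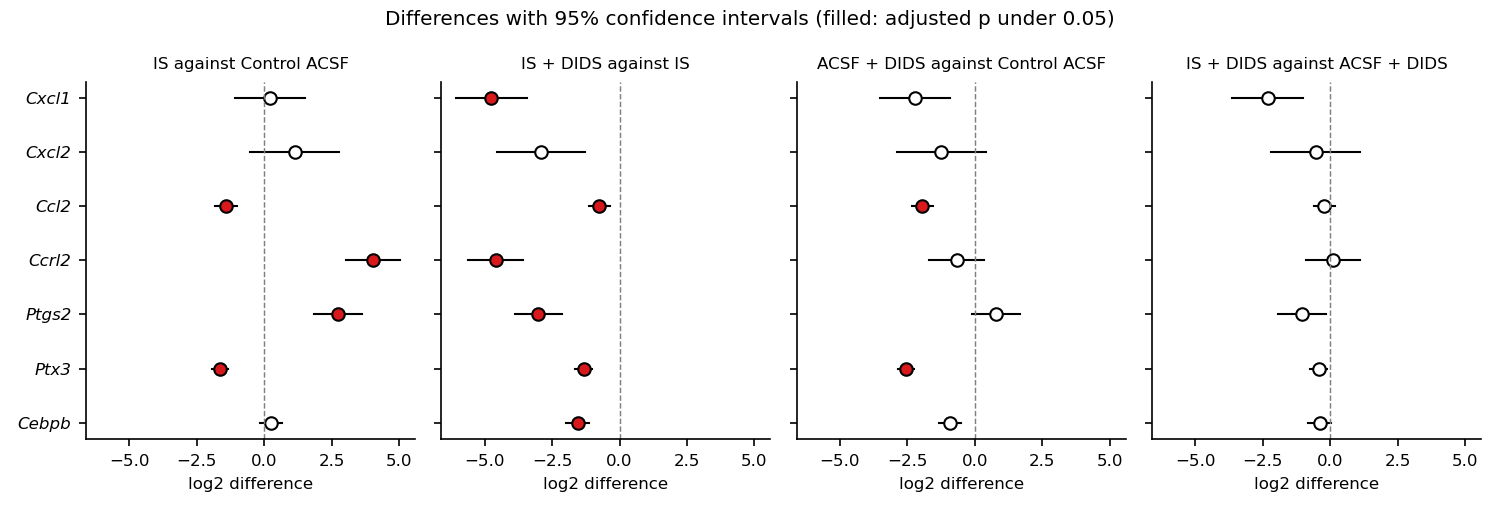
Log2 difference in intensity, first-named group minus second, for each gene in 4 comparisons, with 95% confidence intervals from the limma model; filled points have an adjusted p under 0.05. Of the 7 points, 6 are filled for IS + DIDS against IS and none for IS + DIDS against ACSF + DIDS.

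Whether the response to the ischemic solution differed with DIDS was tested as an interaction, likewise added after the files were seen. Ccrl2, Ptgs2 and Ptx3 passed, 3 of 7 genes against 0.532% of tested probes. The response with DIDS minus the response without was -3.92 ± 0.66 for Ccrl2 (limma adjusted p 0.0209), -3.78 ± 0.58 for Ptgs2 (0.0112) and 1.22 ± 0.20 for Ptx3 (0.0176), in log2 units with SE. For Ccrl2 the response was 0.11 with DIDS and 4.03 without, for Ptgs2 -1.03 with and 2.75 without, and for Ptx3 -0.43 with and -1.65 without. The Ptx3 reading of IS + DIDS 3 was close to the detection limit (score 0.993), so its response with DIDS may be understated. The scored Ccrl2 readings in both DIDS groups were close to the detection limit. The Ptgs2 value rests on readings at background in IS + DIDS and Control ACSF. As bounds in the value table, Ptgs2 was at least 1.44-fold lower in IS + DIDS than in ACSF + DIDS. It was at least 5.69-fold higher in IS than in Control ACSF. The other 4 did not pass: Cxcl1 at -2.52 (limma adjusted p 0.296), Cebpb at -0.63 (0.426), and Cxcl2 (0.595) and Ccl2 (0.0712), whose response with DIDS was not measured above background. If ACSF + DIDS 2 is counted as IS + DIDS, as its description says, none of the 3 passed, at -3.94 for Ccrl2 (limma adjusted p 0.112), -3.36 for Ptgs2 (0.191) and 1.30 for Ptx3 (0.118). Leaving out any 1 sample other than Control ACSF 2, Control ACSF 3, IS 3 or IS + DIDS 1 also ended the Ccrl2 call, with a limma adjusted p of at most 0.0729. Leaving out Control ACSF 1, IS 2 or ACSF + DIDS 2 ended that of Ptx3, at most 0.0661, as did the chip as a block (0.0535). Without IS 3, Cxcl1 (-3.46, limma adjusted p 0.00453) and Cxcl2 (0.00674) passed as well, and the values of Ccrl2 and Ptgs2 became -4.64 and -4.47. The 7-array fit passed 0 of 7.

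**Figure D4:**
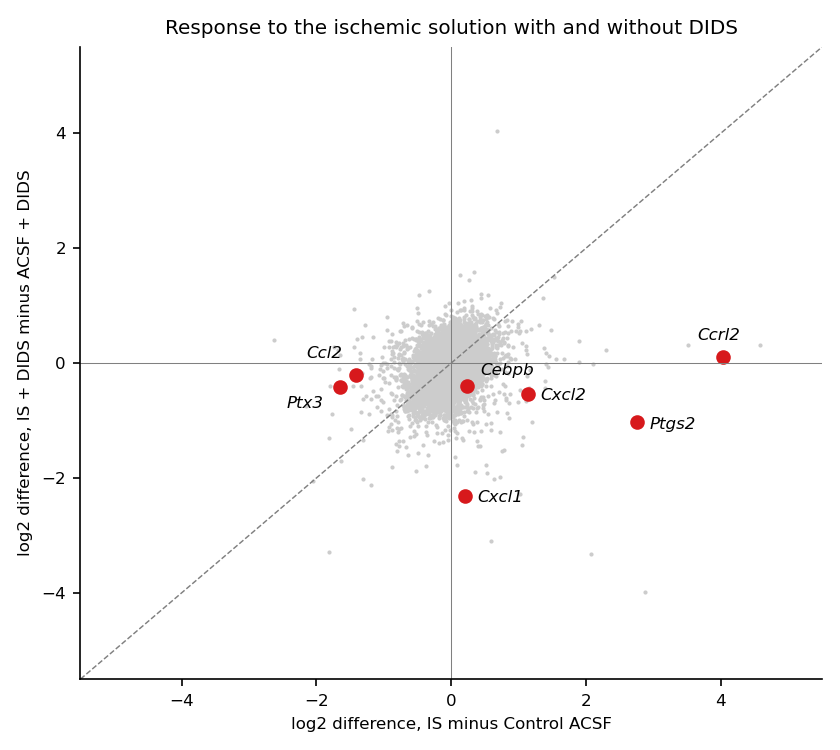
Log2 difference in intensity between IS + DIDS and ACSF + DIDS (vertical axis) against that between IS and Control ACSF (horizontal axis) for every tested probe (grey) and the 7 genes (red); the dashed line marks equal responses. Ccrl2 lies at 4.03 on the horizontal and 0.11 on the vertical axis, with scored readings in both DIDS groups close to the detection limit. Ptgs2 lies at 2.75 and -1.03, with readings at background in Control ACSF and IS + DIDS. The vertical values of Cxcl2 and Ccl2 rest on background in both groups. The grey cloud has a median near 0 on both axes.

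Pooling the 6 DIDS samples against the 6 without, whichever solution they were in, tests the average shift with DIDS. A gene shifted in only 1 solution can also pass. Cxcl1, Ptx3 and Cebpb passed as lower with DIDS, 3 of 7 genes against 0.413% of tested probes passing as lower and 0.455% in either direction. The log2 difference was -3.49 ± 0.59 for Cxcl1 (limma adjusted p 0.0215), -1.94 ± 0.33 for Ptx3 (0.0215) and -1.24 ± 0.15 for Cebpb (0.00242), with SE and n = 6 each. These 3 genes and Ccl2 had every DIDS sample below every sample without it, as 1.03% of tested probes did, and the exact two-sided permutation test over samples gave 0.00216 for each, the smallest p that 6 against 6 allows. Ccl2 missed the adjusted threshold at -1.34 (limma adjusted p 0.0682), as did Cxcl2 at -2.08 (0.122), Ccrl2 at -2.63 (0.183) and Ptgs2 at -1.11 (0.456). The exact permutation p was 0.00649 for Cxcl2 and for Ccrl2, and 0.193 for Ptgs2, whose DIDS samples spanned 86.2 to 216 against 98.0 to 1204 without. No DIDS sample is known to lie on chip 1, and with the chip as a block all 3 calls were lost (limma adjusted p 0.303 for Cxcl1, 0.382 for Ptx3 and 0.0519 for Cebpb). Leaving out IS 1, IS 2, IS + DIDS 2 or IS + DIDS 3 also ended the Cxcl1 call (limma adjusted p up to 0.0655), and leaving out Control ACSF 1, Control ACSF 2, IS + DIDS 2 or IS + DIDS 3 that of Ptx3 (up to 0.0634). Without IS 3, Ccl2 (0.0213) and Cxcl2 (0.0403) passed by limma. On chip 2 alone, with 4 DIDS samples and 2 without, the difference was -3.08 for Cxcl1, -1.92 for Ptx3 and -1.08 for Cebpb.

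Across the 12 samples the 7 genes did not move as 1 block. Pearson's r of log2 intensity was 0.974 between Ccl2 and Ptx3, 0.909 between Ccrl2 and Ptgs2, 0.924 between Cxcl1 and Cebpb and 0.877 between Cxcl1 and Cxcl2. It was 0.12 between Ccl2 and Ccrl2 and 0.026 between Ptgs2 and Ptx3. These values describe 12 samples that share groups and chips, and carry no test. After subtracting each chip's mean, with the 3 samples of no named chip taken as a block of their own, the tested genes most like each of the 7 over 12 samples were Zmpste24 for Cxcl1 (r 0.942), Cd274 for Cxcl2 (0.935), Rassf4 for Ccl2 (0.967), Ptbp1 for Ccrl2 (0.974), Ezr for Ptgs2 (0.94) and Sox6 for Cebpb (0.945). For Ptx3 they were Ccl2 and Rassf4, both at 0.953.

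Other genes of the same pathways were counted beside the 0.455% to 3.07% of all tested probes that passed, at which counts in lists this small say little. Of 7 other chemokine and chemokine receptor genes tested, 4 prostaglandin genes and 6 pentraxin, complement and acute phase genes, none passed in any of the 6 comparisons by limma. At an unadjusted p under 0.05, at most 2, 2 and 1 of these did in any comparison, at most 4 of 9 cytokine genes and 3 to 6 of 14 NF-kappaB and Toll-like receptor pathway genes, where 8.79% to 20.9% of all tested probes did. Of 9 other cytokine genes, Socs1, which encodes a feedback inhibitor of cytokine signalling, fell in IS against Control ACSF by 0.74 on the log2 scale (limma adjusted p 0.019). Il6ra, the interleukin-6 receptor gene, fell in IS + DIDS against ACSF + DIDS by 0.59 (limma adjusted p 0.036). Its intensity in IS + DIDS was at most 110.7, below the detection limits of IS + DIDS 2 (131.15) and IS + DIDS 3 (127.25). The size of this Il6ra fall was therefore not measured, and no bound was computed for it. Of 14 NF-kappaB and Toll-like receptor pathway genes, Map3k14, which encodes the NF-kappaB-inducing kinase, fell in IS against Control ACSF by 0.79 (limma adjusted p 0.0422). Cebpa, the only other C/EBP family gene tested, fell in IS against Control ACSF by 1.17 (limma adjusted p 0.0479), with intensities of 607, 696 and 1002.2 in IS and 1866, 2234 and 1166 in Control ACSF. Its Cebpb relative did not pass there.

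Irf1, an interferon regulatory factor gene and a known NF-kappaB target, was lower with DIDS in both solutions. Its intensity was 267, 228 and 244 in IS + DIDS against 976, 755 and 336 in IS, and 383, 388 and 326 in ACSF + DIDS against 1379, 1481 and 1233 in Control ACSF. No group overlapped with its partner, and IS 3 was again the low IS sample. Irf1 fell by 1.35 in IS + DIDS against IS (limma adjusted p 0.0255) and by 1.90 in ACSF + DIDS against Control ACSF (0.00636), on the log2 scale. Tlr4, the receptor for bacterial lipopolysaccharide, fell by 0.56 in the 6 DIDS samples against the 6 without (limma adjusted p 0.04). No DIDS sample is known to lie on chip 1, where Tlr4 had intensities of 255 and 283 in Control ACSF and 245 in IS. On chip 2 it had 168 and 152 in ACSF + DIDS, 161 and 146 in IS + DIDS, 206 in Control ACSF and 185 in IS. With the chip as a block, 2 probes of all passed in this comparison.

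The slices were checked against markers of their cell types, since whole slices hold many. Markers of microglia (4 of 15 tested, with Itgam detected on no array), astrocytes (4 of 10), neurons (7 of 12) and oligodendrocytes (4 of 10) were measured, and no marker gene passed in any of the 6 comparisons by limma, with at most 1 of a list at an unadjusted p under 0.05. The microglial sum was 5850 to 10683 in IS + DIDS, 6028 to 7134 in IS, 5997 to 7540 in ACSF + DIDS and 5961 to 8500 in Control ACSF. Neutrophil markers, of the cells that CXCL1 and CXCL2 attract, were detected on no array for any of 5 with a named probe (S100a9, Mpo, Elane, Ltf and Cxcr2). Nor was Pecam1, the 1 of 11 endothelial and pericyte markers with a named probe, or Cd3e, 1 of 2 lymphocyte markers with a named probe (of 8). The other lymphocyte marker was detected on too few arrays to be tested. With so few probes, these lists do not show whether such cells were absent.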

How the data were processed

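Total RNA of 12 samples (4 groups of 3) was hybridised to 1-colour Illumina arrays. The deposited array files hold mean bead intensity per probe, exported by BeadStudio 2.3.47 and not normalized per the file headers (the submitters' processing notes give BeadStudio 2.0), with a deposited detection score, a fraction from 0 to 1 in which values near 1 mean detected. The value table holds the authors' processed intensity, whose normalization is not given in the sources used here. Its columns have like quartiles (medians 80.6 to 82.5) and are not background-subtracted.

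Columns were matched to arrays by rank correlation over all probes: Spearman's rho was 0.997 or higher for 9 columns and 0.960 or lower for the other 3, a split read after seeing the values. The planned fit used neqc intensities of 7 arrays filed in 1 group. It was replaced, after the files were seen, by the same test on the table's 12 columns, because the table gives every array 1 title and adds 3 samples. Both are reported, and IS + DIDS against ACSF + DIDS and the interaction were added then.

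Log2 intensity was fitted with limma 3.58.1 (R 4.3.3; lmFit, eBayes), 1 coefficient per group and a shared spread. A separate model with 2 coefficients gave DIDS against no DIDS. Probes with a score above 0.99 on at least 3 of 9 arrays were tested (16717 of 46301), with Benjamini-Hochberg adjustment over all of them and a threshold of 0.05. Dim groups are given as bounds, against the median intensity of the 20 dimmest detected probes of each array. That limit was set after seeing that the single dimmest probe varied between arrays, and it gives smaller bounds. The number of arrays limits the precision. The procedure was tested on simulated data with independent normal values. These had no chip effect, detection floor or outlying sample, so that test does not bear on those features of the real data.

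Probes have no gene names in the files: zero-padded numbers of 10000 or more were read as Entrez numbers and named through the RefSeq table, which named 9796 probes. Of these, 5017 were tested, so most list genes could not be measured. The 7 genes and the lists were chosen with earlier results of these data known. Named by rule were the 7 genes, of each list up to 2 genes per comparison with the smallest p, and the 3 genes most like each of the 7. Only those that passed are given, and of the like genes the closest. A list gene with several probes stands for its brightest. Same-numbered samples had deviations correlated above 0.1 in all 3 pairs of IS with Control ACSF and of IS + DIDS with IS (0.129 to 0.426), and in 10 of 18 pairs in all. This pairing is a hint from the data, since the labels name no shared culture or day, and samples of the same number can also share a chip. The 3 samples with no chip named formed a block of their own in the chip block and the likeness measure. Alternatives covered normalization, background correction, the detection filter, blocks for chip and replicate number, the other label of ACSF + DIDS 2, the array files, and each sample left out.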

Additional observations from a re-analysis of the deposited data

Results flagged for a closer look

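Ccrl2 in IS + DIDS 1 stood out among the 6 DIDS samples. Its gap to the next sample was 0.633 of the group's range, over the critical value of Dixon's test, with 14 groups of 6 looked at. Chance gives such a gap in about 1 of 20 groups. The same sample stood apart over all probes.

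The response to the ischemic solution differed with and without DIDS for 3 genes, by the interaction in limma: by -3.92 for Ccrl2, -3.78 for Ptgs2 and 1.22 for Ptx3 on the log2 scale. The Ptgs2 value rests on readings at background in IS + DIDS and Control ACSF. The scored Ccrl2 readings in both DIDS groups were close to the detection limit. The Ptx3 reading of IS + DIDS 3 was also close to that limit. Every call was lost when ACSF + DIDS 2 was counted as IS + DIDS, with values of -3.94, -3.36 and 1.30 in the same order.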

How the results depend on the processing

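The fit first planned, on neqc intensities of 7 arrays, called 3 probes for IS against Control ACSF and 0 for IS + DIDS against IS, ACSF + DIDS against Control ACSF, IS + DIDS against ACSF + DIDS, the interaction and DIDS against no DIDS, against 149, 514, 99, 413, 89 and 76 in the value table, and it called 0 of the 7 genes. At an unadjusted p under 0.05 it had 1831, 2107, 659, 1000, 944 and 2510 probes. It had 1 array in each DIDS group, except that DIDS against no DIDS also took in the array of IS + DIDS 2. Without background correction those arrays gave 29, 0, 4, 0, 1 and 0 probes in the same order and called Ptx3 in both comparisons with Control ACSF, and the 9 arrays under the table's titles gave 30, 205, 10, 30, 5 and 0. Counting ACSF + DIDS 2 as IS + DIDS gave 81, 84, 27, 0 and 2 for the first 5. The chip as a block gave 104, 396, 45, 587, 74 and 2 in the same order, and the cause was not tested. Counting the arrays filed in 2 groups in either group was not run, since the table gives each 1 title.

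Leaving out each sample gave 64 to 226 probes for IS against Control ACSF (lowest without Control ACSF 2, highest without IS + DIDS 1), 121 to 518 for IS + DIDS against IS (lowest without IS 1) and 59 to 139 for ACSF + DIDS against Control ACSF (lowest without Control ACSF 1 or 2). It gave 125 to 466 for IS + DIDS against ACSF + DIDS (lowest without ACSF + DIDS 1), 40 to 103 for the interaction (lowest without ACSF + DIDS 2) and 25 to 97 for DIDS against no DIDS (lowest without IS 1).

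The replicate block gave 143, 620, 116, 465, 95 and 70 probes. It lost Ccl2 in IS + DIDS against IS (limma adjusted p 0.0551) and added Cebpb in ACSF + DIDS against Control ACSF (0.0317), with no other change among the 7 genes. Of 12 samples, 6 correlated best with their own number. How many would do so by chance was not computed. All samples numbered 3 lay on chip 2, so number and chip are partly mixed.

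Among the 7 genes, 2 differences that had not passed changed sign. Cxcl1 in IS against Control ACSF became -0.22 with 7 or 9 neqc arrays, -0.15 without background correction, and lay between -0.31 and 1.14 with a sample left out. Ccrl2 in IS + DIDS against ACSF + DIDS became -0.054, -0.052 and -0.25 in the array-file settings, and lay between -0.22 and 0.31 with a sample left out. Dim probes (Cxcl2, Ccl2 and Ptgs2 outside their bright groups) lie at the detection limit, so their levels there have no order.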
